A study of Homo sapiens with 9 samples.

Results

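Antisense long non-coding RNA genes were followed in nuclear and cytoplasmic RNA from human cells treated with control siRNA or depleted of WTAP and KIAA1429 (now named VIRMA), 2 subunits of the complex that places the N6-methyladenosine (m6A) mark on RNA. The members are genes that are not annotated as protein-coding, whose symbol ends in -AS1, and that were chosen by their level, an estimated count of at least 10 in each of the 6 nuclear samples. Of 1594 such symbols in the files, 319 met this floor and 1275 did not, among them 272 with no count in any nuclear sample. The annotation types 317 of the members as lncRNA and the other 2, TP73-AS1 and SLC44A3-AS1, as transcribed pseudogenes. The whole series covered 56347 genes, of which 14064 met the same floor. Just inside the floor were BRPF3-AS1, ARHGEF4-AS1, BAALC-AS1 and PCOLCE-AS1, each with a lowest nuclear count of 10. TDH-AS1 (9.97), KLF3-AS1 (9.84), BAZ1A-AS1 (9.76) and TAGAP-AS1 (9.67) fell just outside. Since a floor in every nuclear sample chose the members, their nuclear levels and their nuclear excess are descriptions.

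The cells were an embryonic kidney line, named HEK293 in the labels and 293 T in the methods, in which all groups were transfected with siRNA and separated into nuclei and cytoplasm before RNA extraction. The 4 groups were control nuclei (n = 3), nuclei after combined WTAP/KIAA1429 RNAi (n = 3), cytoplasm after RNAi (n = 2) and control cytoplasm (n = 1). The control cytoplasm therefore has no replicate, and every comparison that uses it rests on that library. Nothing in the labels says whether replicates came from separate cultures, so p-values measure the spread between these samples, which may be technical. Fewer cells, less RNA per cell and a smaller share in the fraction cannot be told apart in such bulk RNA.

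Antisense transcripts are made from the DNA strand opposite to another gene, often starting near that gene's promoter or running through its exons. They are spliced and polyadenylated much like mRNA, but many stay in the nucleus, where some act on the chromatin or the transcript of the gene they oppose. The m6A complex marks adenosines within a short consensus in mRNAs and long non-coding RNAs alike, WTAP and KIAA1429 being the subunits that hold and guide the METTL3/METTL14 enzyme. The study asked which RNAs depend on this complex for export, and here that question is put to the antisense genes, with the gene named by the rest of each symbol as the sense reference.

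The core of the commonest m6A consensus is GGACT in DNA letters. For members whose level or fraction changed, 25-base windows are shown with the 5 consensus bases in capitals. Each holds the first occurrence whose 25 bases lie within 1 exon, which need not be the first in the transcript. Positions are on the GRCh37 build, and each window is written 5′ to 3′ on the strand of the antisense transcript.
SH3BP5-AS1 (chr3:15295734-15295758, plus strand): atagcacaagGGACTtctatgaact
CCDC90B-AS1 (chr11:83130605-83130629, plus strand): tcagatcgggGGACTtcccttggga
FOXD2-AS1 (chr1:47900232-47900256, minus strand): gcgaaaacctGGACTctttcccaga
CAMTA2-AS1 (chr17:4890401-4890425, plus strand): gttggggtaaGGACTccgccccagg
MSANTD2-AS1 (chr11:124671903-124671927, plus strand): ttaagaatatGGACTctaaagtcag
MCM3AP-AS1 (chr21:47664471-47664495, plus strand): gaactcccatGGACTgccttgctgg
The 25 bases of CAMTA2-AS1 all lie in exon sequence that a gene on the other strand also uses, and those of the other 5 windows do not. The most abundant transcript held 6 such sites in SH3BP5-AS1, 6 in FOXD2-AS1, 4 in CCDC90B-AS1, 2 in MSANTD2-AS1, and 1 in each of CAMTA2-AS1 and MCM3AP-AS1. Across the members whose sequence could be read, 2.11% of 13014 adjoining 25-base stretches held GGACT on the transcript strand. A comparison of site counts between gene sets was void, because only 194 of the 319 members (60.8%) had a transcript sequence of the same length as in the files, and whether any site carries the mark was not measured here.

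The siRNA targets were lower in the RNAi samples. WTAP was at 23.1 to 27.6 CPM (counts scaled to a common library size, after correction for composition) in control nuclei and 12.3 to 15.6 in RNAi nuclei, a log2 change of -0.83 ± 0.13 (SE; FDR = 0.0169, from the quasi-likelihood test of edgeR, Benjamini-Hochberg adjusted). VIRMA changed by -1.08 ± 0.21 (FDR = 0.0314). Estimated counts summed to 11627403 to 19036141 per sample, and 3 counts correspond to 0.19 to 0.303 CPM. The nuclear reference RNAs MALAT1 and NEAT1 were at 88.3 to 211 CPM in nuclei and 5.47 to 13.8 in cytoplasm. Neither was steady across the siRNA groups. MALAT1 was at 13.8 CPM in control cytoplasm and 6.47 and 5.47 after RNAi, and NEAT1 at 121 to 144 CPM in control and 180 to 211 in RNAi nuclei. GAPDH and EEF1A1 were higher in every cytoplasmic than in every nuclear sample. Mitochondrial MT-CO1, listed as a cytoplasmic marker, was at 36770 to 86270 CPM in nuclei and 19670 to 35960 in cytoplasm. MT-CYB was at 12750 to 25830 and 7461 to 15420, and MT-ND4 at 13240 to 33360 and 20000 to 33100, so the fractions overlapped for these 2 and the nuclear samples also held mitochondrial RNA. PTPRC, ALB and CDH5, markers of leukocytes, hepatocytes and endothelium, stayed at or below 0.328 CPM, and PAX2 and NEFM, expressed in HEK293 cells, were present in every sample. COL1A1, a fibroblast marker, was at 56.5 to 91.5 CPM, and COL3A1 at 0.974 to 5.04 CPM.

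The antisense genes were low in abundance. Their median nuclear level was 3.46 TPM (a share of all transcripts that accounts for transcript length), with a range of 0.325 to 220 TPM and 57 members above 10 TPM, against a median of 8.11 TPM over all genes with the same floor. Together they took 0.188% to 0.26% of the assigned counts of a sample. VPS9D1-AS1 stood highest, at 158, 243 and 179 TPM in control nuclei, 233, 262 and 245 in RNAi nuclei, 397 in control cytoplasm and 458 and 375 in RNAi cytoplasm. Its sense partner VPS9D1, which encodes a VPS9-domain protein, had a mean of only 12.6 ± 4.14 TPM (SD, n = 3) in control nuclei. ATP2A1-AS1 followed with a nuclear mean of 103 TPM, then TRIM52-AS1 (91.3), NUTM2A-AS1 (60.7), PITPNA-AS1 (54.3), NUTM2B-AS1 (52.3), LBX1-AS1 (45.2) and C10orf95-AS1 (35.3). Nuclear samples of neighbours in this order overlapped, except at the steps from VPS9D1-AS1 to ATP2A1-AS1 and from TRIM52-AS1 to NUTM2A-AS1, and the very similar NUTM2A-AS1 and NUTM2B-AS1 may share reads. The first 6 of these genes were higher in each cytoplasmic than in each nuclear sample by CPM, and LBX1-AS1 and C10orf95-AS1 were higher in each nuclear sample.

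Most antisense genes lay toward the nucleus. The median log2 ratio of nucleus over cytoplasm was 0.70 in RNAi cells and 0.66 in control cells, against -0.06 and -0.04 over all genes with the same floor, and it was above 0 for 222 of the 319 members after RNAi. The medians were 0.30 and 0.22 for the 206 members with 10 counts in every sample, and 0.565 and 0.395 by limma on log2(TPM + 1), while scaling by library size alone gave 0.967 in RNAi cells. Over all genes tested these settings gave -0.009 and -0.065, 0.315 and 0.087, and 0.305, where the main fit gave 0.035 and 0.037. With no filter on low counts the members were at 0.598 and 0.551, and all genes at 0.675 and 0.418. In RNAi cells the members then no longer lay above all genes. All 3 RNAi nuclei lay above both RNAi cytoplasmic samples for 174 members (54.5%) and below both for 65 (20.4%), where all 14064 genes with the floor gave 37.7% and 40.4%. The 139 genes with LINC symbols that met the floor, long intergenic RNAs, leaned further still, with a median of 0.97 and 69.1% above. Protein-coding genes with the floor had a median of -0.15. The order of the members differed little between the siRNA groups (Spearman's rho of 0.876 across 319 genes, a description, since the ratios come from the same fit and genes are not replicates).

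The nuclear end was held by RNAs that were nearly missing from the cytoplasm. HNRNPK-AS1, opposite the gene of an RNA-binding hnRNP protein, was at 5.18, 3.67 and 5.51 CPM in control nuclei and 4.10, 3.41 and 4.12 in RNAi nuclei. Its cytoplasmic values were 0.0608 in the control and 0 and 0.109 after RNAi, each at most 1 count, so no fold is given. KLC1-AS1 (3 control nuclei at 4.01 to 5.92 CPM, RNAi nuclei at 6.15 to 6.90) and PITX1-AS1 (5.14 to 5.48 and 6.67 to 6.95) had at most 4 cytoplasmic counts in a sample. For both, the RNAi nuclei lay above the control nuclei, with changes that did not pass the test (FDR = 0.265 and 0.309). HNRNPK-AS1 shares 79.2% and PITX1-AS1 84.1% of the exon bases of its main transcript with a gene on the other strand. Counts of these 2 genes therefore depend on the strand given to each read, while KLC1-AS1 shares no exon base. SH3BP5-AS1 was next, and is described with its response to RNAi. The highest points of the fit, RUFY1-AS1 and ALDH1A3-AS1, had 0 counts in both RNAi cytoplasmic samples, so their fitted ratios are no measure of size.

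At the cytoplasmic end stood ZNF516-AS1, MNX1-AS1, IER3-AS1 and MBNL1-AS1, with log2 ratios in RNAi cells of -1.52, -1.29, -1.24 and -1.24. ZNF516-AS1 was at 1.76 to 1.88 CPM in RNAi nuclei and 5.06 and 5.47 in RNAi cytoplasm. MNX1-AS1, beside the gene of a motor neuron homeobox factor, was at 8.21 to 10.4 CPM in RNAi nuclei and 23.4 and 22.4 in RNAi cytoplasm. Neither gene's fractions overlapped. ZNF516-AS1 and MNX1-AS1 share no exon base with a gene on the other strand. MBNL1-AS1 shares 99.0% and IER3-AS1 70.7% of the exon bases of its main transcript, so their counts depend on the strand given to each read.

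Within the nucleus, depletion of WTAP and KIAA1429 left the antisense genes as a group near their control level. Of the 319 members, 8 rose and 6 fell (FDR under 0.1 over all 16181 genes tested and a log2 change beyond 0.5), which is 4.39% against a background of 4.89%. The median log2 change was 0.05, against 0.00 over all genes tested, and 55 members (17.2%) had an unadjusted p under 0.05, as did 20.8% of all genes tested. Scaling by library size alone gave 6 up and 2 down. Control and RNAi nuclei did not overlap for 82 members (25.7%, with RNAi higher in 52 and lower in 30), and 28.1% of all genes tested did the same. The LINC genes had a median of 0.22, with 14 of 139 raised and 2 lowered. The floor in all nuclei keeps out genes that fell below it in either condition.

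**Figure D1:**
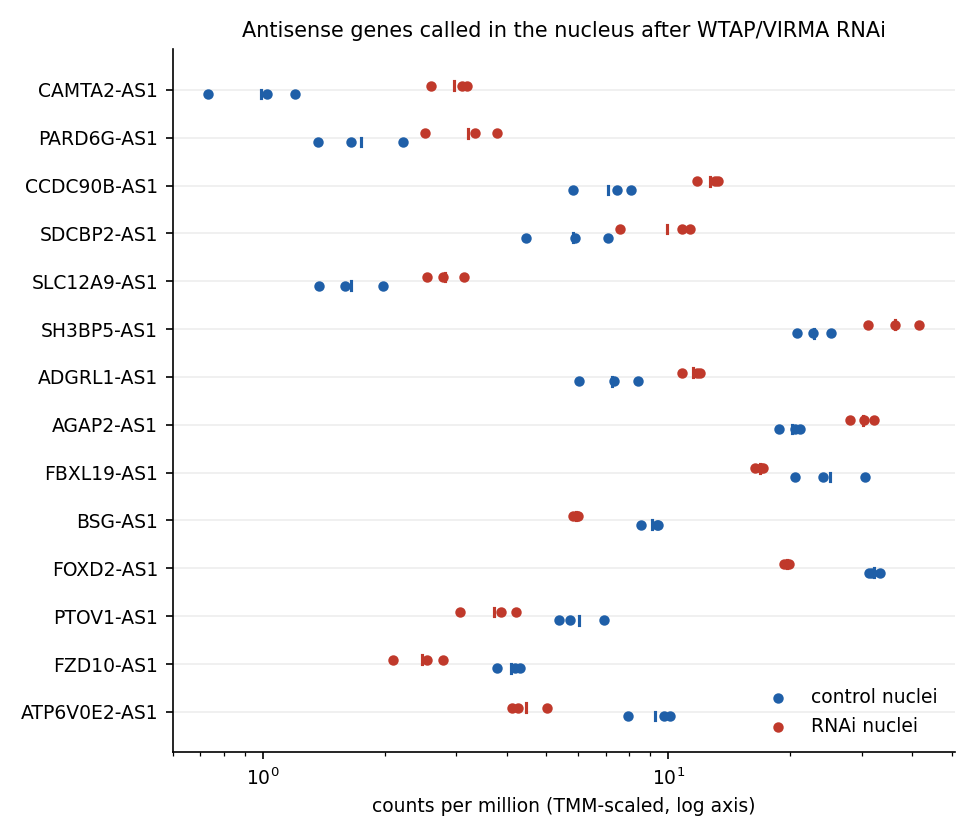
Nuclear level in CPM (log axis) of the 14 antisense genes that passed both thresholds, with a point per sample (n = 3 for each group) and a bar at the mean of control (blue) and RNAi (red) nuclei. In none of the 14 genes do the groups overlap, and the span runs from 0.732 CPM for CAMTA2-AS1 in a control to 41.6 CPM for SH3BP5-AS1 after RNAi.

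CAMTA2-AS1, opposite the gene of a calmodulin-binding transcription activator, shares 68.5% of the exon bases of its main transcript with that gene. Its counts therefore depend on the strand given to each read. Among the called genes this RNA rose most. It was at 0.732, 1.02 and 1.20 CPM in control nuclei and 3.18, 2.59 and 3.10 in RNAi nuclei, or 11 to 15 and 28 to 46 counts, a log2 change of 1.58 ± 0.27 (SE; FDR = 0.0225). In the cytoplasm it was at 0.487 CPM in the control and 0.55 and 0.447 after RNAi, only 8.0, 7.1 and 4.1 counts, and its ratio change of 1.54 ± 0.64 did not pass the test (FDR = 0.146). CCDC90B-AS1 was at 5.80 to 8.07 CPM in control and 11.8 to 13.3 in RNAi nuclei (log2 change 0.84 ± 0.17, FDR = 0.0341). SH3BP5-AS1, which runs through exons of the gene of an SH3-domain-binding protein, was at 25.2, 20.7 and 22.7 CPM in control nuclei and 41.6, 31.1 and 36.2 after RNAi (0.67 ± 0.15, FDR = 0.0441). ADGRL1-AS1, opposite an adhesion receptor gene, rose by 0.66 (FDR = 0.0558), and AGAP2-AS1 by 0.58 (FDR = 0.0292). PARD6G-AS1, SDCBP2-AS1 and SLC12A9-AS1 also rose, by 0.90, 0.78 and 0.77, at FDRs of 0.0854 to 0.0937, close to the threshold. AGAP2-AS1 and FBXL19-AS1 lie beyond the 12 largest changes and were added after their values were seen.

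Of the 6 that fell, FOXD2-AS1 had the tightest samples. This RNA, starting 3403 bases from the start of the forkhead factor gene FOXD2, was at 31.2, 31.8 and 33.4 CPM in control nuclei and 19.9, 19.6 and 19.3 in RNAi nuclei (log2 change -0.71 ± 0.10, FDR = 0.0128). Its cytoplasmic level was lower too, at 15.2 CPM in the control and 10.6 and 11.9 after RNAi. ATP6V0E2-AS1, opposite the gene of a proton pump subunit, fell from 7.94, 9.74 and 10.1 CPM to 4.10, 4.26 and 5.01 (-1.05 ± 0.17, FDR = 0.0172). BSG-AS1 fell from 8.58 to 9.41 CPM in control nuclei to 5.81 to 5.97 (-0.63 ± 0.16, FDR = 0.0589). FZD10-AS1, PTOV1-AS1 and FBXL19-AS1 fell by 0.74, 0.71 and 0.58 on the log2 scale, at FDRs of 0.0858, 0.071 and 0.089.

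The number of nuclear calls depended on control nuclear replicate 3 and on each of the RNAi nuclear replicates. Without control nuclear replicate 3 only 2 of the members were called, and without RNAi nuclear replicates 1, 2 or 3 there were 4, 3 and 1, while the share of all genes called fell to 0.548%, 1.61%, 0.662% and 0.327%. Without control nuclear replicates 1 or 2 there were 17 and 13 calls, with 11 and 9 of the 14 among them. All 14 genes kept their direction in every alternative in which they were tested. ATP6V0E2-AS1 and FOXD2-AS1 were called in 14 of 17 alternatives and CAMTA2-AS1 in 14 of 16. At the other end, SLC12A9-AS1 was called in 4 of 17, PARD6G-AS1 in 5 of 16 and FZD10-AS1 in 6 of 17.

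The nuclear/cytoplasmic ratio was compared between RNAi and control cells by the interaction of siRNA and fraction, the contrast the study used to find RNAs held in the nucleus. It increased for 12 antisense genes and decreased for 6, 5.64% of the members against a background of 18.2% of all genes tested. The members' lower counts (a median nuclear mean of 37.7, against 137 over all genes tested) go with this lower share, and their part in it was not tested. The median log2 change was 0.06, against -0.05 over all genes tested; it turned to -0.04 with a transcript-length offset and to -0.03 for the 206 members with 10 counts in every sample. When samples were scaled by library size alone, the median of all genes moved from -0.05 to 0.23 and the split of calls from 12 up and 6 down to 15 up and 0 down. The length offset gave 4 up and 6 down, so the balance of direction depends on the scaling. Over all genes tested, the main fit called 1680 up and 1273 down for the ratio. The paper reports far fewer RNAs for this contrast and describes the samples behind it as replicated. The control cytoplasm analysed here has no replicate, so the background share is a result of this fit and not of the paper. The reason for the difference was not tested. Against the same control cytoplasm, the nuclear reference RNAs MALAT1 and NEAT1 also had ratio increases, of 1.33 and 0.85 on the log2 scale.

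**Figure D2:**
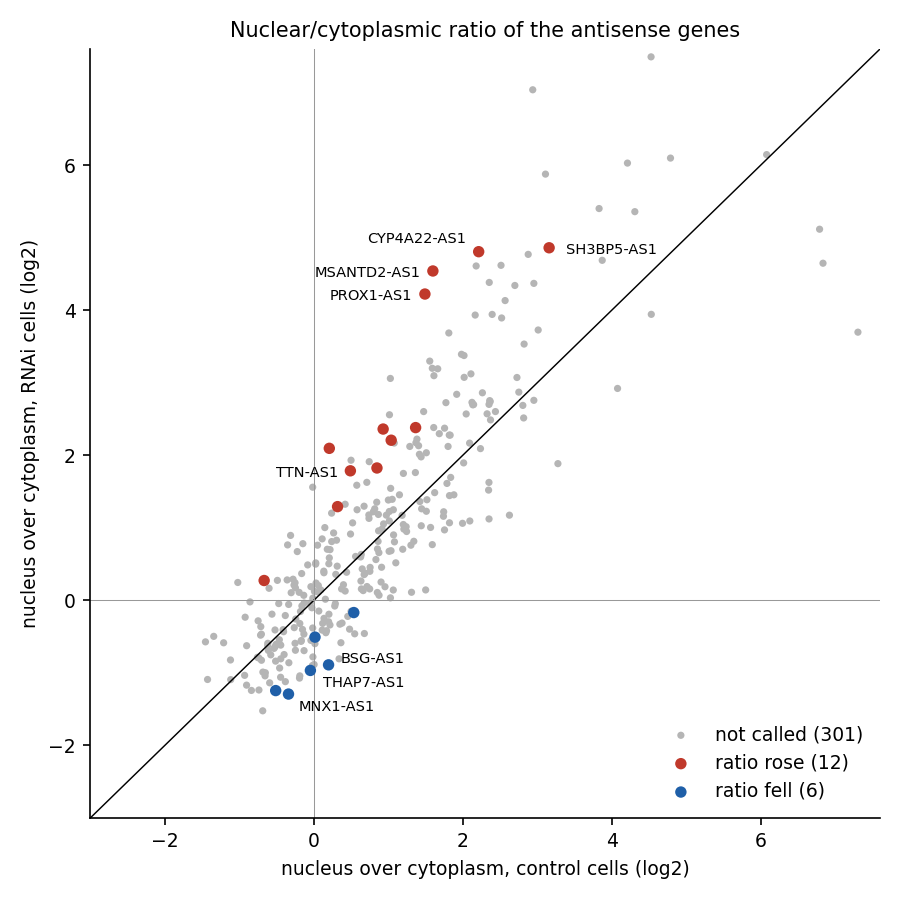
Log2 ratio of nucleus over cytoplasm in control cells (x axis) and RNAi cells (y axis) from the fit to all 9 samples, with a point for each of the 319 antisense genes and a line of equality. Red points mark the 12 genes whose ratio rose and blue points the 6 whose ratio fell, and grey points the 301 that were not called. The control cytoplasm is 1 library, and the farthest points have cytoplasmic counts near 0.

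SH3BP5-AS1 had the ratio increase with the lowest FDR. Against its rise in nuclei, its cytoplasmic level was 2.58 CPM in the control and 0.955 and 1.60 after RNAi, and the log2 ratio went from 3.16 to 4.86, a change of 1.70 ± 0.39 (SE; FDR = 0.0232). It was called in 14 of 17 alternatives, including all 8 that left out a library. ADGRL1-AS1 and CCDC90B-AS1 were also called in both contrasts, with ratio changes of 1.17 (FDR = 0.0464) and 1.01 (FDR = 0.0936).

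The 3 largest increases came from cytoplasmic counts that were close to the floor. MSANTD2-AS1 had 10 counts in the control cytoplasm and 2 in the RNAi cytoplasmic samples together, a depth-corrected ratio of 0.126 (exact 95% interval 0.0134 to 0.59, counting error only). CYP4A22-AS1 had 11 and 3 (0.171, interval 0.0307 to 0.649). PROX1-AS1, opposite the gene of the lymphatic homeobox factor PROX1, had 22 and 4 (0.114, interval 0.0286 to 0.336), 1 RNAi sample being at 0. Their nuclear levels overlapped between siRNA groups for MSANTD2-AS1 and PROX1-AS1, and for CYP4A22-AS1 were 2.80 to 3.34 CPM in controls and 3.87 to 4.37 after RNAi. The fitted ratio changes were 2.94 (FDR = 0.062), 2.59 (FDR = 0.0301) and 2.73 (FDR = 0.0591), and their sizes depend on how low counts are handled.

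Among the better-covered increases, TTN-AS1, which runs through exons of the gene of the muscle protein titin, was at 6.21, 4.03 and 6.00 CPM in control nuclei and 7.81, 6.38 and 6.44 in RNAi nuclei. In the cytoplasm it was at 3.83 in the control and 2.11 and 1.82 after RNAi, and the ratio change was 1.30 ± 0.39 (FDR = 0.0563). MCM3AP-AS1, opposite the gene of the export factor GANP, was at 7.90 CPM in control cytoplasm and 4.95 and 4.17 after RNAi, while its nuclear samples overlapped (0.98 ± 0.30, FDR = 0.0638). EFCAB10-AS1, SBF2-AS1, RBM26-AS1 and CCDC183-AS1 completed the 12, with changes of 1.89, 1.43, 0.97 and 0.94. Of the 12, 8 also fell in the cytoplasm by the test, and 3 rose in the nucleus. The ratio change is the nuclear minus the cytoplasmic change of the same fit. This overlap is therefore partly built in and is no separate evidence.

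The 6 genes with a decrease had log2 ratios of -0.51 to 0.54 in control cells. MNX1-AS1 was at 13.5 CPM in control cytoplasm and 23.4 and 22.4 after RNAi, with overlapping nuclear samples (ratio change -0.95 ± 0.24, FDR = 0.0326). THAP7-AS1, opposite a zinc finger gene, was at 18.3 CPM in control cytoplasm and 29.6 and 23.4 after RNAi, and at 16.3 to 18.4 and 13.0 to 14.5 in control and RNAi nuclei (-0.92, FDR = 0.0295). BSG-AS1 fell by 1.09 on the log2 scale (FDR = 0.0349), GJD3-AS1 by 0.73, RHPN1-AS1 by 0.71 and HSD17B1-AS1 by 0.52. Of the 6, 4 also rose in the cytoplasm, an overlap built in by the contrast in the same way. Without RNAi cytoplasmic replicate 2 the 18 ratio calls became 7, and without control nuclear replicate 3 or RNAi nuclear replicates 1 or 3 they became 11, 10 and 8; the control cytoplasm could not be left out.

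In the cytoplasm alone, 15 antisense genes rose and 18 fell, 10.3% of the members against 24.6% of all genes tested. AGAP2-AS1, opposite the gene of a GTPase regulator, rose in both fractions. It was at 18.8, 20.6 and 21.2 CPM in control and 28.1, 32.2 and 30.4 in RNAi nuclei, and at 27.7 in control and 53.9 and 61.5 in RNAi cytoplasm (cytoplasmic log2 change 1.06 ± 0.16, FDR = 0.00276). OIP5-AS1, known as cyrano in fish and mouse, and FGD5-AS1 were among those that fell. OIP5-AS1 was at 33.0 CPM in control and 22.7 and 18.8 in RNAi cytoplasm (-0.66 ± 0.17, FDR = 0.0197), with overlapping nuclear samples. FGD5-AS1 was at 52.6 CPM in control and 34.6 and 27.1 in RNAi cytoplasm (-0.76 ± 0.19, FDR = 0.0195), and its nuclear change of -0.35 did not pass the test (FDR = 0.158). The cytoplasmic falls of FGD5-AS1, PROX1-AS1 and GLIPR1-AS1 were called in every alternative in which they were tested. GLIPR1-AS1, picked out for this after its values were seen, was at 5.64 CPM in control and 2.87 and 1.12 in RNAi cytoplasm (-1.45 ± 0.41, FDR = 0.0326), and at 4.58 to 5.26 and 2.67 to 4.02 in control and RNAi nuclei. Scaling by library size alone gave 2 up and 30 down, so the balance of direction in the cytoplasm depends on the scaling as well.

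Of 13 well-known antisense RNAs among the members, 0 were called in the nucleus by edgeR (2 had an unadjusted p under 0.05) or by DESeq2 and limma, 4 in the cytoplasm and 2 for the ratio (TTN-AS1 and MCM3AP-AS1, both described above), where the backgrounds were 4.89%, 24.6% and 18.2%. THAP9-AS1 had a ratio change of 1.01 ± 0.36 that fell just short (FDR = 0.1002), at 7.61 to 9.07 CPM in control and 10.8 to 11.7 in RNAi nuclei. CDKN2B-AS1, also called ANRIL, which opposes a cell cycle inhibitor gene, varied widely between control nuclei (3.89, 2.05 and 1.14 CPM) and was at 3.89, 3.62 and 4.01 after RNAi, a change of 0.67 ± 0.34 (FDR = 0.302). Without control nuclear replicate 1 it was called, with a change of 1.23 (FDR = 0.0408 by edgeR). TP73-AS1 stayed within 35.4 to 41.8 CPM over the 9 samples. GABPB1-AS1, PSMA3-AS1, EPB41L4A-AS1, ZEB1-AS1, MAPKAPK5-AS1 and TMPO-AS1 had nuclear changes between -0.37 and 0.06, and none passed the test.

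A sense partner was listed for 316 members, 315 of them protein-coding genes, and 296 partners were tested. By the annotation, 232 members overlapped exons of their partner, 63 overlapped it without a shared exon, 17 started head to head with it without overlap, and 3 others did not overlap it. In 129 members, most of them overlapping the partner, the start lay within 2000 bases of the partner's start on the opposite strand. HILPDA-AS1 lay on the strand of its partner. No partner was taken for ASMTL-AS1, since the annotation lists ASMTL under more than 1 gene ID, or for HOXC-AS1, since no gene is named HOXC, and C10orf95 was not analysed here. Because 199 members share exon bases with some gene on the other strand, their counts depend on the strand of each read. The library kit keeps strand, but the strand setting of the counting is not given in the sources used here.

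The antisense gene was usually the rarer and the more nuclear of the 2. Its TPM in control nuclei exceeded that of the partner in 116 of 316 pairs, and the median log2 ratio of antisense to sense TPM was -1.08 in control and -1.07 in RNAi nuclei (with 0.1 added to each TPM). Among the 271 pairs in which the partner met the floor too, the antisense gene had the higher nuclear/cytoplasmic ratio in 178 after RNAi and in 192 in control cells. The medians after RNAi were 0.68 for the antisense genes and -0.15 for the partners. At the extremes, MIF-AS1 had a mean of 1.17 TPM in control nuclei against 3160 ± 388 TPM (SD, n = 3) for MIF, a cytokine gene, and TUBA1B-AS1, SRRM2-AS1 and RPL30-AS1 followed. All 897 bases of the main TUBA1B-AS1 transcript lie in exon sequence also used on the other strand. NUTM2B-AS1 was highest relative to its partner, at 46.5 TPM against 0.26 TPM, with BBOX1-AS1 next to it among genes whose partner was detected. GJD3 was listed at 0 in all control nuclei and IER3 in all 9 samples, beside 5.50 TPM for GJD3-AS1 and 9.03 TPM for IER3-AS1. All 2094 bases of the main GJD3-AS1 transcript lie in exon sequence also used on the other strand, as do 70.7% of those of IER3-AS1. A partner listed at 0 is therefore no sign that the sense gene was silent, and how reads were shared between the genes was not tested.

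In most pairs the test called neither gene or only 1 of them. The direction of the nuclear change was shared in 154 of 296 pairs, and that of the ratio change in 161. In the ratio contrast 29 partners were called up and 18 down, 15.9% of the 296 tested against the background of 18.2%. Their median nuclear mean was 256 counts against 37.7 for the antisense genes, and the difference in calls between them was not tested. Both genes of a pair were called in 3, or 17.6% of the 17 called antisense genes with a tested partner. TTN and TTN-AS1 rose together, TTN by 2.27 ± 0.47 (FDR = 0.0148), as did RBM26, an RNA-binding protein gene, by 1.83 ± 0.24 (FDR = 0.00269) with RBM26-AS1. BSG, which encodes the membrane protein basigin, and BSG-AS1 fell alike, by 1.08 and 1.09 on the log2 scale. In the cytoplasm 7 pairs were called together, all 7 in the same direction. The partner was thus called for 22.6% of the 31 called antisense genes with a tested partner, while 74 of all 296 tested partners were called in the cytoplasm (32 up and 42 down), a share close to the background of 24.6%. All of the pairs named here have overlapping exons, so reads of 1 gene assigned to the other cannot be told apart from a shared change.

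**Figure D3:**
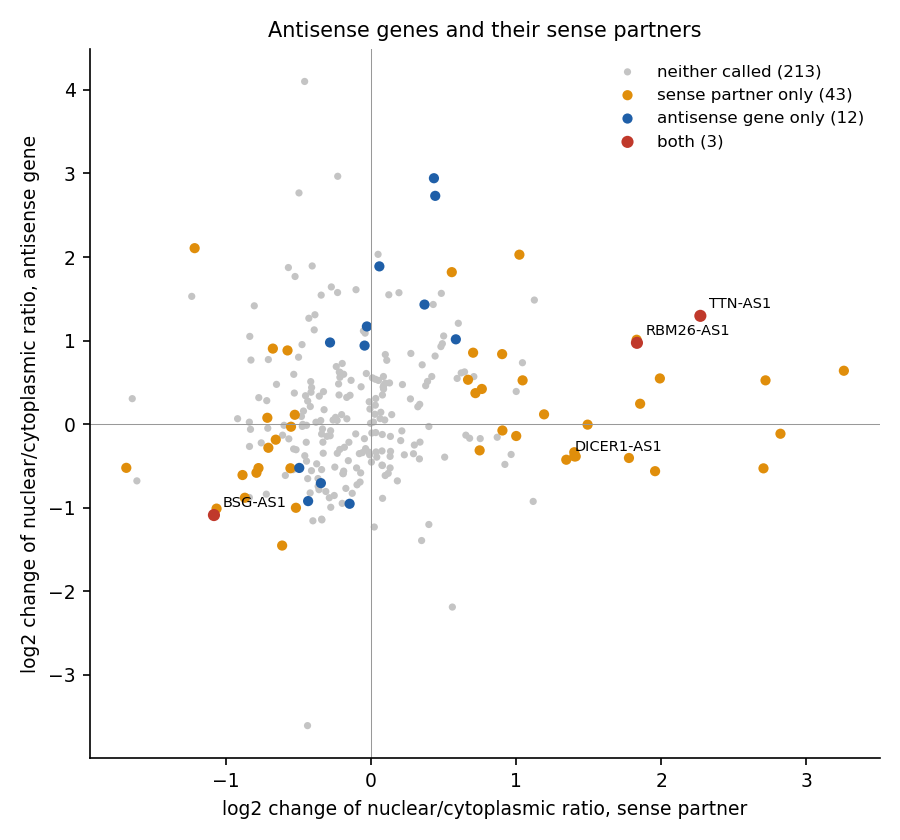
Log2 change of the nuclear/cytoplasmic ratio after RNAi for the sense partner (x axis) and the antisense gene (y axis) in the 271 pairs that both met the floor, a point per pair. In 213 pairs neither was called, in 43 only the partner (orange), in 12 only the antisense gene (blue) and in 3 both (red); TTN-AS1 and RBM26-AS1 lie at upper right and BSG-AS1 at lower left.

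In the nucleus 2 pairs were called for both genes, in different ways. They are 14.3% of the 14 called antisense genes. Of the 296 tested partners 18 (6.08%) were called in the nucleus, beside 4.89% of all genes tested. With so few pairs, the values below are a description. FZD10-AS1 starts 203 bases from its partner FZD10, a Wnt receptor gene, pointing the other way without overlap. FZD10 was at 7.83, 7.84 and 9.55 CPM in control and 4.24, 3.43 and 4.50 in RNAi nuclei (log2 change -1.04, FDR = 0.0211), and FZD10-AS1 at 4.19, 4.29 and 3.77 and at 2.09, 2.78 and 2.54 (-0.74, FDR = 0.0858). Both genes were thus lower in every RNAi nucleus than in any control, but FZD10-AS1 was called in only 6 of 17 alternatives, with log2 changes of -0.824 to -0.33. AGAP2-AS1 rose while AGAP2 fell, from 19.9, 16.4 and 20.8 CPM to 14.8, 12.2 and 12.2 (-0.54, FDR = 0.0688). AGAP2-AS1 shares 866 exon bases with AGAP2.

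DICER1-AS1, named here because of its partner and after its values were seen, starts 365 bases from DICER1, the gene of the microRNA-processing enzyme, and shares 80 exon bases with it. DICER1-AS1 was at 25.4, 21.3 and 21.8 CPM in control nuclei and 27.5, 21.9 and 23.7 in RNAi nuclei, and at 6.22 in control and 8.33 and 9.51 in RNAi cytoplasm. Its ratio change was -0.43 ± 0.25 (FDR = 0.305), while that of DICER1 was 1.35 ± 0.25 (FDR = 0.00959). DICER1 was at 56.0 CPM in control cytoplasm and 25.5 and 33.6 after RNAi. The difference between the genes was not itself tested.

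**Figure D4:**
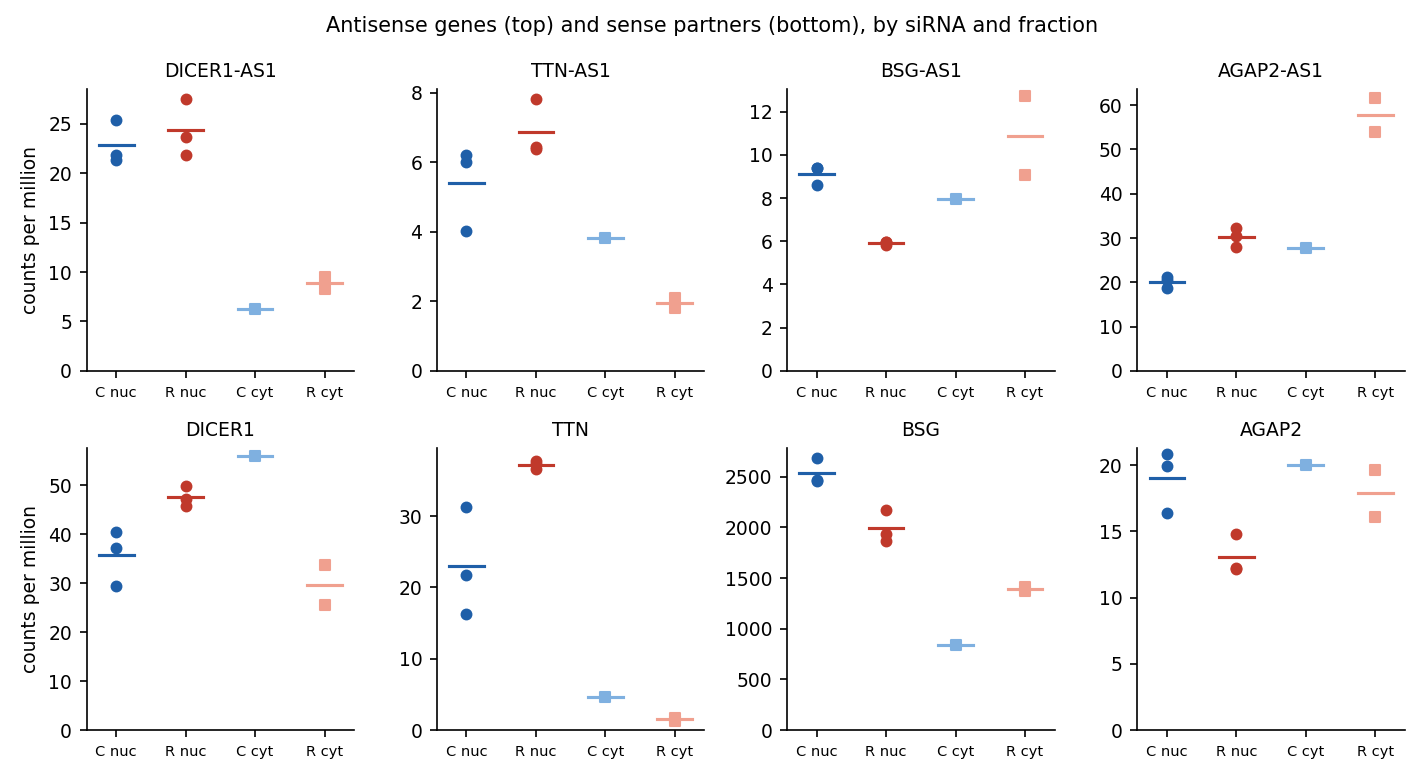
CPM (linear axes from 0, scaled per panel) of 4 antisense genes (top) and their partners (bottom) in control (C) and RNAi (R) nuclei (circles) and cytoplasm (squares), a point per sample with a bar at the mean. DICER1-AS1 stays near 25 CPM in nuclei of both groups while DICER1 drops from 56.0 to 25.5 and 33.6 CPM in cytoplasm, TTN-AS1 and TTN are lower in RNAi cytoplasm, BSG-AS1 and BSG are lower in RNAi nuclei, and AGAP2-AS1 and AGAP2 part in nuclei.

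Longer antisense transcripts leaned further toward the nucleus. Among the 107 longest main transcripts (1790 to 8829 bases) the median log2 nuclear/cytoplasmic ratio after RNAi was 1.26, against 0.38 in the 106 of middle length and 0.40 in the 106 shortest, and 73 of 107 lay wholly above the cytoplasm. The same 107 held 10 of the 18 ratio calls, where the background was 18.2% of all genes tested. Their median ratio change was 0.20, beside 0.01 and 0.03, while the Spearman correlation of length with ratio change was 0.127 across the 319 genes. No other gene set was split by length, so the trend is not shown to be particular to antisense genes. The part of count depth in it was not tested. Members without exon bases shared with the other strand (120 genes) had a median ratio of 0.53 after RNAi and 0.64 in control cells, and those with shared bases (199 genes) 0.76 and 0.68. Among the latter, the 32 with over 50% of their bases shared had lower medians, of 0.38 and 0.56. Of these 32, 17 lay wholly above the RNAi cytoplasm and 10 wholly below it. The 120 without shared bases held 5 of the 14 nuclear and 5 of the 18 ratio calls, where the backgrounds were 4.89% and 18.2% of all genes tested.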

How the data were processed

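RNA-seq of 9 nuclear and cytoplasmic samples was analysed at the level of genes. Per the labels and the methods, the authors trimmed reads with cutadapt, merged lanes and ran salmon against Ensembl version 75 transcripts of hg19; the salmon version and strand setting are not given in the sources used here. They deposited estimated counts per transcript, not normalized, and TPM values, divided by effective length and scaled to the same total; transcript lengths accompany them. Of 215170 transcripts, 183122 matched GENCODE version 44 on GRCh37 (83.07% to 88.31% of counts), which also gave symbols, gene types and positions. Counts were summed per gene and rounded.

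All 16181 genes with at least 10 counts in at least 3 samples were fitted with edgeR 4.0.16 (R 4.3.3) in 4 groups, using TMM scaling, the quasi-likelihood test and the study's thresholds (log2 change beyond 0.5, FDR under 0.1). The biological coefficient of variation was 0.1381 with 5 residual degrees of freedom, and the lone control cytoplasmic sample was assumed to vary like the others. At these depths 3 counts are 0.19 to 0.303 CPM, which limits what can be seen of low genes. Within groups, Pearson's r of log2 CPM ran from 0.9723 to 0.9861. Tested on simulated data with log2 changes of 2 in RNAi nuclei, the fit found 97.4% of the changed genes among 15694, with 14.3% of calls false. That share of false calls was above the FDR limit of 0.1. Every nuclear change called in a member was smaller than 2, and the simulation used the same spread for all genes and changed nothing in the cytoplasm. It therefore does not measure how well the members' changes, or those of the ratio, can be found.

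Named members are those called in the nucleus or for the ratio (the 12 largest of each), the 8 highest by TPM, the 4 most and 4 least nuclear after RNAi (mean log2(CPM + 0.1)), the 4 highest and 4 lowest against their partner, and a list of known antisense RNAs. The members and lists were chosen with earlier results of these data known. Alternatives were DESeq2 1.42.0 (size factors and Wald test), library size only, other count filters, a length offset, limma 3.58.1 on log2(TPM + 1) and log2(TPM + 0.1), a replicate block, each library left out, a member floor of 20, and, chosen after seeing the data, members without exon bases shared with the other strand.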

Additional observations from a re-analysis of the deposited data

Results flagged for a closer look

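For 18 antisense genes the change after RNAi differed between the fractions by the interaction term of the edgeR fit. The values are the log2 change in the nucleus minus that in the cytoplasm. It was positive for MSANTD2-AS1 (2.94), PROX1-AS1 (2.73), CYP4A22-AS1 (2.59), EFCAB10-AS1 (1.89), SH3BP5-AS1 (1.70), SBF2-AS1 (1.43), TTN-AS1 (1.30), ADGRL1-AS1 (1.17), CCDC90B-AS1 (1.01), MCM3AP-AS1 (0.98), RBM26-AS1 (0.97) and CCDC183-AS1 (0.94). It was negative for HSD17B1-AS1 (-0.52), RHPN1-AS1 (-0.71), GJD3-AS1 (-0.73), THAP7-AS1 (-0.92), MNX1-AS1 (-0.95) and BSG-AS1 (-1.09). All 18 rest on the same single control cytoplasmic library. All 18 kept their direction in each alternative in which they were tested, and the number of these alternatives in which they were called ran from 3 of 17 for RHPN1-AS1 to 14 of 17 for SH3BP5-AS1, BSG-AS1, MNX1-AS1 and THAP7-AS1 and 14 of 16 for CYP4A22-AS1.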

How the results depend on the processing

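Leaving out 1 library at a time gave 1 to 17 calls in the nucleus, 15 to 40 in the cytoplasm and 7 to 25 for the ratio, with a median nuclear change of 0.007 to 0.068, a median ratio change of 0.059 to 0.146, and a median nuclear/cytoplasmic ratio of 0.618 to 0.739 in RNAi and 0.647 to 0.678 in control cells. The only control cytoplasmic library could not be left out, and depth limits members with few cytoplasmic counts. Library size alone gave 8 calls in the nucleus, a median ratio change of 0.339 and a median ratio of 0.967 in RNAi cells. The DESeq2 Wald test gave 15 calls in the cytoplasm and 10 for the ratio. The length offset gave 6 (nucleus), 18 (cytoplasm) and 10 (ratio) calls, and medians of -0.001 (nuclear change), 0.518 (RNAi) and 0.55 (control). Limma on log2(TPM + 1) gave 3, 9 and 3 calls and medians of 0.565 and 0.395 in RNAi and control cells. Limma on log2(TPM + 0.1) gave 1, 21 and 11 calls, a median ratio change of 0.283, and medians of 0.935 and 0.605. With 10 counts in every sample the medians were 0.304 and 0.22, with no filter the control median was 0.551, and with a member floor of 20 the nuclear change was 0.008 and the control median 0.569. The 120 members without exon bases shared with the other strand, a choice made after seeing the data, gave 5, 12 and 5 calls, a median ratio change of 0.177, and medians of 0.533 and 0.636. The cause of these shifts was not tested. Same-numbered control and RNAi nuclei deviated together with correlations of 0.185, 0.11 and 0.042, and the main fit did not take the numbers as pairs. Whether same-numbered nuclear and cytoplasmic samples deviated together, the pairing that bears on the ratio, was not checked. A replicate block gave 21, 33 and 25 calls and a control median of 0.624.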
